A study of Mus with 8 samples.

Results

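De novo lipogenesis, the making of fatty acids from carbohydrate carbon, was examined through 10 genes, all of them measured among 23185 named genes on expression arrays of regenerating mouse liver. The 10 were taken by gene symbol, with no threshold on level or change. They are the enzyme genes Acly, Acaca, Acacb, Fasn and Me1, the transcription factor genes Srebf1 and Mlxipl, the Spot 14 family genes Thrsp and Mid1ip1, and Pnpla3. The study compared 4 liver samples labelled Ctrl (Control here) with 4 labelled LKB1 KO. All 8 were collected 48 h after partial hepatectomy, an operation that removes part of the liver and sets off its regrowth. The labels do not give the strain, sex, age or feeding state of the animals, the promoter or agent behind the knockout, or whether each array is a separate animal. The p-values therefore measure the spread between these samples, which may in part be technical.

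In this pathway, citrate leaves the mitochondrion and ATP citrate lyase (Acly) splits it into acetyl-CoA. The acetyl-CoA carboxylases (Acaca, Acacb) convert acetyl-CoA into malonyl-CoA, and fatty acid synthase (Fasn) builds palmitate with NADPH that malic enzyme (Me1) helps to supply. In liver, SREBP-1c (from Srebf1) carries the insulin signal and ChREBP (from Mlxipl) the carbohydrate signal to these genes. LKB1, the kinase encoded by Stk11, activates AMPK, which phosphorylates and inhibits both acetyl-CoA carboxylases. Arrays measure transcript levels and not this phosphorylation.

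Stk11 was lower in the LKB1 KO arrays by 2.39 log2 units (SE 0.19, limma adjusted p = 0.000453), and no array went against its label. Array medians ran from 3.75 to 3.96 log2 units. Precision is limited by how many arrays were run. LKB1 KO 2 and Control 4 had the lowest mean correlation with their own groups over genes (0.974 and 0.976, against 0.979 to 0.983 for the other arrays), so results that rest on them are also given without them. Liver identity was clear, with mean albumin (Alb) levels of 12.4 and 12.2 log2 units in Control and LKB1 KO. A background gauge, the 95th percentile of the mean levels of 1354 olfactory and vomeronasal receptor genes, stood at 3.73 log2 units. Of 4 measured markers of adipocytes, which also carry a lipogenic programme, Adipoq (2.01), Lep (2.58) and Retn (3.06) lay below it in their Control means, and the lipid droplet gene Plin1 (3.73) lay at it.

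None of the 10 lipogenic genes passed the threshold of limma adjusted p under 0.05 over all 23185 genes, either higher or lower, where 1.98% of all genes did. Those with a lower mean in LKB1 KO numbered 7, against 47.1% of all genes, and those with a higher mean 3, against 52.9%. The median difference was -0.25 log2 units, against 0.016 over all genes. Before adjustment, 5 of the 10 had a limma p under 0.05 (Thrsp, Acly, Acaca, Pnpla3 and Mid1ip1), where 13.4% of all genes did. The differences ran from -1.02 for Thrsp to 0.60 for Pnpla3. These counts rest in part on Control 4, since without that array Thrsp and Mlxipl passed the threshold as lower in LKB1 KO.

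**Figure D1:**
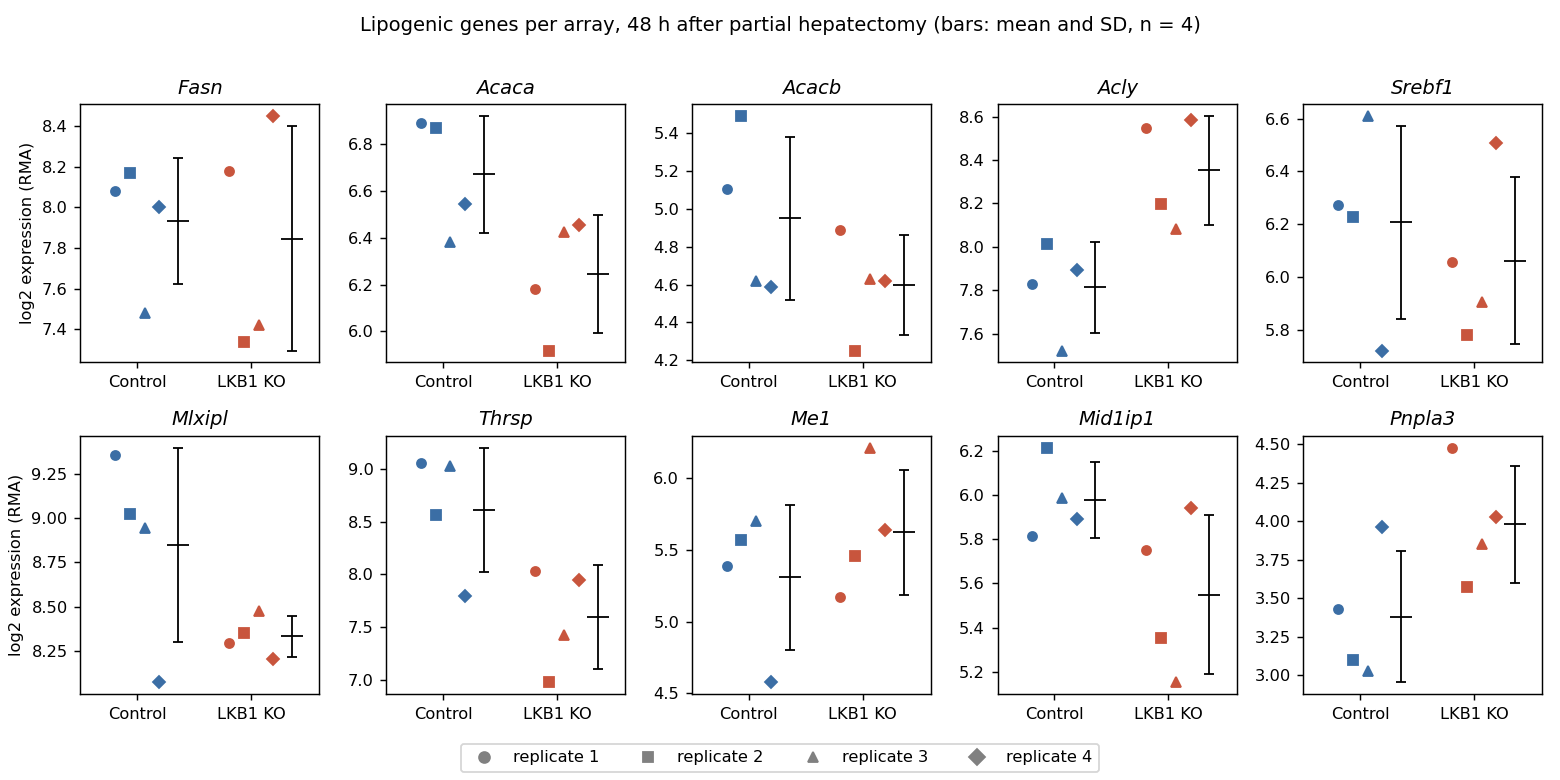
Log2 expression (RMA, vertical axis) of each lipogenic gene in the 4 Control (blue) and 4 LKB1 KO (red) arrays, with one marker shape per replicate number and black bars for the mean and SD (n = 4). Acly is the one gene of the 10 with no overlap between groups. Control 4 (diamond) lies below the other Control arrays for Srebf1, Mlxipl, Thrsp, Me1 and, by a small margin, Acacb.

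Acly (Entrez Gene 104112), at the entry of the pathway, was the one member with no overlap between Control and LKB1 KO arrays, a pattern found in 8.84% of all genes (5.5% lower and 3.34% higher in LKB1 KO). It measured 7.83, 8.01, 7.52 and 7.89 log2 units across Control 1 to 4, against 8.55, 8.20, 8.08 and 8.58 across LKB1 KO 1 to 4. All 4 LKB1 KO arrays lay above the highest Control array. The means were 7.81 ± 0.21 and 8.35 ± 0.25 (SD, n = 4). The difference of 0.54 log2 units (SE 0.16, 95% confidence interval 0.18 to 0.89) did not pass the threshold (limma adjusted p = 0.148). Under 17 alternative settings it stayed positive, between 0.44 and 0.63, and the adjusted p ran from 0.106 to 0.324.

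The acetyl-CoA carboxylase genes both had lower means in LKB1 KO. Acaca (Entrez Gene 107476), the cytosolic form that feeds fatty acid synthesis, measured 6.89, 6.87, 6.38 and 6.54 across Control 1 to 4, against 6.18, 5.92, 6.43 and 6.45 across LKB1 KO 1 to 4. LKB1 KO 1 and LKB1 KO 2 lay below every Control array, while LKB1 KO 3 and LKB1 KO 4 lay between Control 3 and Control 4. The difference was -0.42 (SE 0.17, 95% confidence interval -0.80 to -0.051, limma adjusted p = 0.296). Leaving out LKB1 KO 2 gave -0.32 (limma adjusted p = 0.451), and leaving out Control 4 gave -0.47 (0.320).

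Acacb (Entrez Gene 100705), the mitochondrion-associated form whose malonyl-CoA restrains fatty acid oxidation, measured 5.11, 5.49, 4.62 and 4.59 in Control 1 to 4. In LKB1 KO 1 to 4 it measured 4.89, 4.25, 4.63 and 4.62. Control 1 and Control 2 were the high arrays, and LKB1 KO 2 alone lay below all Control arrays. The difference was -0.35 (SE 0.22, 95% confidence interval -0.83 to 0.13, limma adjusted p = 0.548), and it ran from -0.47 without Control 4 to -0.17 without Control 2. Leaving out LKB1 KO 2 gave -0.24 (limma adjusted p = 0.728). Within each array, the log2 value of Acaca minus that of Acacb averaged 1.72 ± 0.24 in Control and 1.65 ± 0.25 in LKB1 KO (SD, n = 4). The shift of -0.072 in this within-array difference was smaller than its spread in either group (exact two-sided permutation p = 0.629, adjusted over 3 gene pairs 0.629).

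Fasn (Entrez Gene 14104), the synthase itself, had close group means of 7.93 ± 0.31 and 7.85 ± 0.55 (SD, n = 4). Its values were 8.08, 8.17, 7.48 and 8.0 across Control 1 to 4, against 8.18, 7.34, 7.42 and 8.45 across LKB1 KO 1 to 4. The LKB1 KO arrays fell on both sides of the Control range, with 2 above it and 2 below it. The difference of -0.086 (SE 0.26, limma adjusted p = 0.926) had a 95% confidence interval from -0.66 to 0.49, which leaves changes of either sign possible. Its sign changed without LKB1 KO 2 (0.084) or LKB1 KO 3 (0.055), and it was -0.29 without LKB1 KO 4. Over the 8 arrays, each centred on its own mean, the named genes with the profile nearest to Fasn by root mean square distance were Slc11a1 (0.15 log2 units), Cpsf1 (0.16) and V1rd19 (0.17). V1rd19 lay below the background gauge in every array. None of the other 9 lipogenic genes was among the 100 genes nearest to Fasn. These 100 are a small part of 23185 genes, and the distance also counts unlike sizes of variation, so this absence says little.

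Me1 (Entrez Gene 17436), the cytosolic malic enzyme, measured 5.39, 5.57, 5.71 and 4.58 across Control 1 to 4, against 5.17, 5.46, 6.22 and 5.64 across LKB1 KO 1 to 4. Control 4 was the lowest array and LKB1 KO 3 the highest, and the remaining arrays of the groups overlapped. The difference was 0.31 (SE 0.27, 95% confidence interval -0.29 to 0.92, limma adjusted p = 0.693), and it was 0.068 without Control 4 and 0.11 without LKB1 KO 3.

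The gene of ChREBP, Mlxipl (Entrez Gene 58805), separated the groups except for one array. Its values were 9.36, 9.02, 8.94 and 8.07 across Control 1 to 4, against 8.30, 8.35, 8.48 and 8.20 across LKB1 KO 1 to 4. Control 1, Control 2 and Control 3 all lay above the LKB1 KO arrays, and Control 4 lay below all of them. The SD was 0.55 in Control and 0.11 in LKB1 KO, where the median SD over all genes was 0.21 and 0.22. With all arrays the difference was -0.52 (SE 0.24, 95% confidence interval -1.04 to 0.0016, limma adjusted p = 0.375). Without Control 4 it was -0.78 (SE 0.15, 95% confidence interval -1.11 to -0.45, limma adjusted p = 0.0295), or 1.72-fold lower. It was -0.79 without both Control 4 and LKB1 KO 2 (limma adjusted p = 0.0456).

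Srebf1 (Entrez Gene 20787), which encodes SREBP-1, showed no such separation. It measured 6.27, 6.23, 6.61 and 5.72 across Control 1 to 4, against 6.06, 5.78, 5.91 and 6.51 across LKB1 KO 1 to 4. All 4 LKB1 KO values lay within the Control range, which Control 4 bounded from below. The difference was -0.14 (SE 0.21, 95% confidence interval -0.61 to 0.32, limma adjusted p = 0.831), and it ran from -0.31 without Control 4 to -0.011 without Control 3. The array holds one value for the gene, so SREBP-1a and SREBP-1c transcripts were not separated, and the processing of the SREBP protein is not measured. Within arrays, the difference between Srebf1 and Mlxipl shifted by 0.37 log2 units between the groups (exact two-sided permutation p = 0.257, adjusted over 3 gene pairs 0.386). That shift ran from 0.18 without LKB1 KO 4 to 0.48 without Control 3.

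Thrsp (Entrez Gene 21835), the gene of Spot 14, a small nuclear and cytosolic protein induced by carbohydrate feeding and thyroid hormone, showed the greatest difference of the 10. It measured 9.06, 8.56, 9.03 and 7.79 log2 units across Control 1 to 4. In LKB1 KO 1 to 4 it measured 8.04, 6.98, 7.43 and 7.95. Every LKB1 KO array lay below Control 1, Control 2 and Control 3, and Control 4 lay between the LKB1 KO arrays. The means of 8.61 ± 0.59 and 7.60 ± 0.49 (SD, n = 4) differed by -1.02 (SE 0.31, 95% confidence interval -1.70 to -0.34), or 2.02-fold, with a limma adjusted p of 0.152. Without Control 4 the difference was -1.29 (SE 0.26, 95% confidence interval -1.87 to -0.71, limma adjusted p = 0.0368), or 2.44-fold. Without both Control 4 and LKB1 KO 2 it was -1.08 (limma adjusted p = 0.0410). Leaving out LKB1 KO 2 alone gave -0.81 (limma adjusted p = 0.268).

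Leaving out Control 4 raised the count of lipogenic genes past the threshold from 0 to 2, both lower in LKB1 KO, where 2.12% of all genes passed in that fit and 1.65% passed as lower. Thrsp and Mlxipl were the members called. With LKB1 KO 2 left out as well the count was again 2, where 1.98% of all genes passed and 1.37% passed as lower. Leaving out any array other than Control 4 gave 0. With array weights neither gene was called (limma adjusted p = 0.0988 for Thrsp and 0.203 for Mlxipl). Of 17 alternative settings, 2 called each gene. The limma adjusted p reached 0.370 for Thrsp and 0.599 for Mlxipl.

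**Figure D2:**
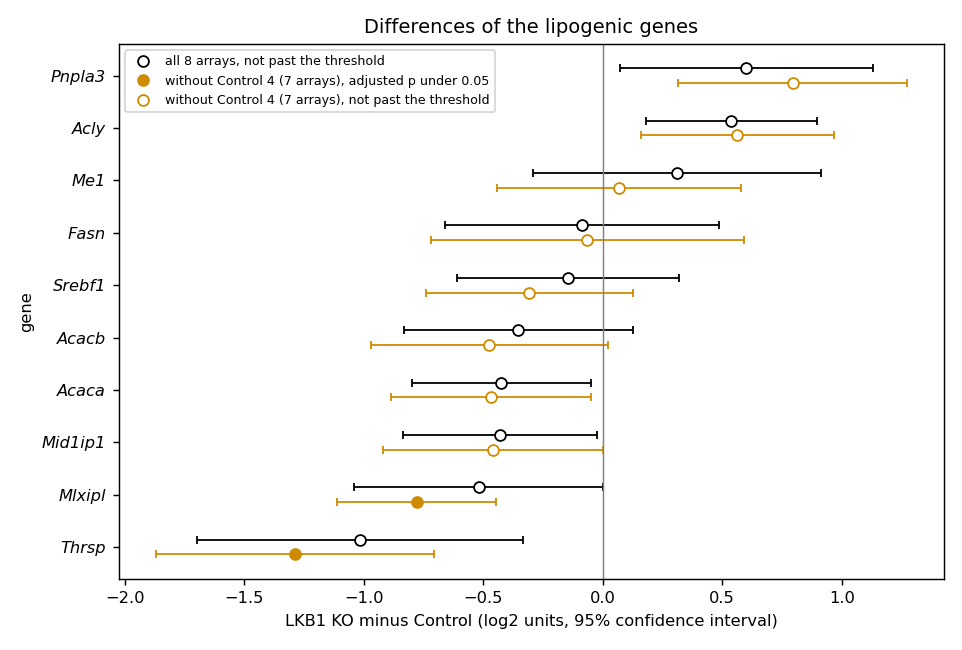
Difference between LKB1 KO and Control (log2 units, horizontal axis) for each lipogenic gene, with 95% confidence intervals, over all 8 arrays (black) and without Control 4 (orange); filled points have a limma adjusted p under 0.05. Thrsp and Mlxipl are filled without Control 4, and no gene is filled with all arrays.

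Mid1ip1 (Entrez Gene 68041), the paralog of Thrsp and a protein that promotes assembly of acetyl-CoA carboxylase into its active polymer, also had a lower mean in LKB1 KO. It measured 5.82, 6.22, 5.99 and 5.89 across Control 1 to 4, against 5.75, 5.35, 5.15 and 5.94 across LKB1 KO 1 to 4. LKB1 KO 4 lay inside the Control range and the other 3 LKB1 KO arrays lay below it. The difference was -0.43 (SE 0.18, 95% confidence interval -0.84 to -0.023, limma adjusted p = 0.342). The value of Thrsp minus that of Mid1ip1 within arrays differed by -0.59 between the groups (exact two-sided permutation p = 0.200, adjusted over 3 gene pairs 0.386). In size this was less than its SD of 0.62 in Control and more than its SD of 0.31 in LKB1 KO. The shift ran from -0.83 without Control 4 to -0.38 without Control 1. For each such pair the smallest exact p that 4 against 4 arrays allow is 0.0286.

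Pnpla3 (Entrez Gene 116939), a lipid droplet protein gene that SREBP-1c and ChREBP induce, had the highest difference of the 10 and a signal near background. It measured 3.43, 3.10, 3.03 and 3.96 across Control 1 to 4, against 4.48, 3.57, 3.85 and 4.03 across LKB1 KO 1 to 4. Of its arrays, 3 Control and 1 LKB1 KO lay below the background gauge of 3.73, so the size of the difference is uncertain. Control 4 was the array of that group above the gauge and the one that overlapped the LKB1 KO range. The difference was 0.60 (SE 0.24, 95% confidence interval 0.074 to 1.13, limma adjusted p = 0.294), and 0.79 without Control 4 (limma adjusted p = 0.109). The other 9 lipogenic genes were above the gauge in all 8 arrays.

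**Figure D3:**
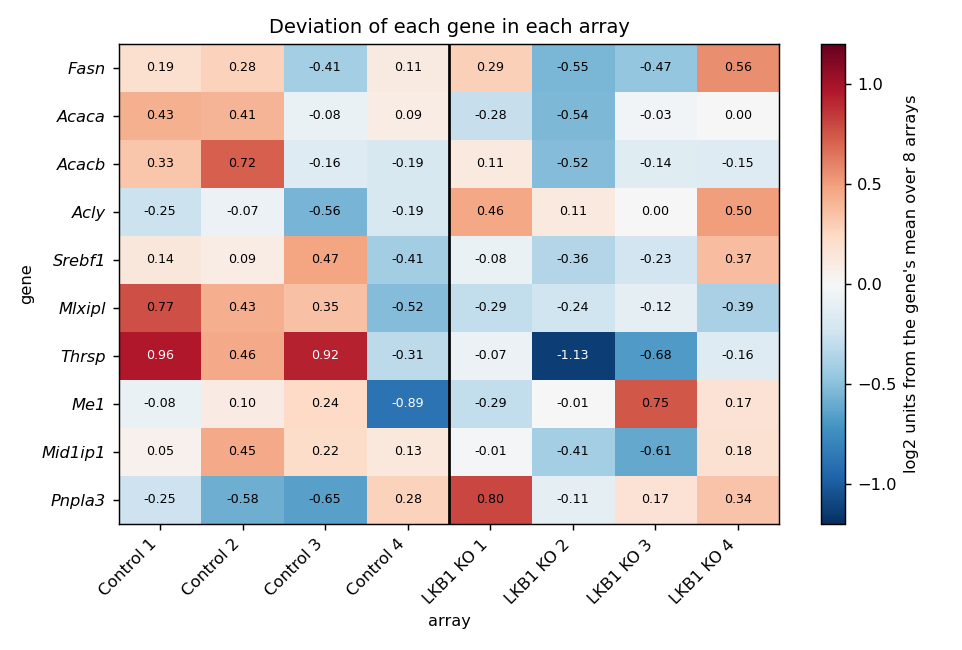
Deviation of each lipogenic gene in each array from its mean over the 8 arrays (log2 units, printed in each cell and shown as colour), with Control on the left of the black line and LKB1 KO on the right. LKB1 KO 2 is the lowest array for 4 genes and Control 4 for 3, and the genes do not share one order of arrays.

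The 10 genes did not share one lowest array, and whether they varied together was not tested. LKB1 KO 2 was the lowest array for 4 of them (Acaca, Acacb, Fasn and Thrsp), and Control 4 for 3 (Srebf1, Mlxipl and Me1). Genes above their own mean numbered 7, 8, 5 and 4 across Control 1 to 4. In LKB1 KO 1 to 4 they numbered 4, 1, 2 and 6. The median deviation of the 10 per array was 0.16, 0.34, 0.073 and -0.19 across Control 1 to 4, against -0.041, -0.38, -0.13 and 0.18 across LKB1 KO 1 to 4. These medians overlapped between the groups, with LKB1 KO 4 above Control 1 and Control 4 below LKB1 KO 3. For none of the 10 genes did another of the 10 rank among its 100 nearest profiles. Since 100 is a small part of 23185 genes, that count does not show whether the 10 varied together. Several members were more variable among Control arrays than most genes, with the SD of Thrsp at percentile 96.4 of all genes, that of Mlxipl at 95.2 and that of Me1 at 93.9. Much of that spread came from Control 4. With it the Control SDs of these genes were 0.59, 0.55 and 0.51, and without it 0.28, 0.22 and 0.16. Mid1ip1 stood at percentile 37.7 and Acly at 50.5.

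**Figure D4:**
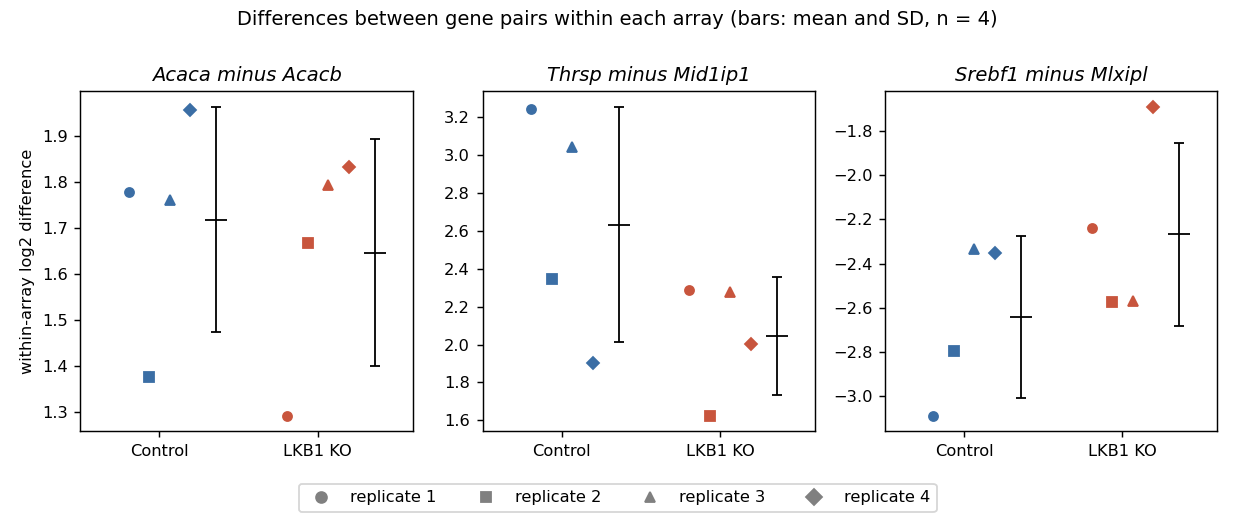
Within-array log2 difference (vertical axis) between the genes of 3 pairs in each Control (blue) and LKB1 KO (red) array, with black bars for the mean and SD (n = 4). The groups overlap in each pair, and the shifts were -0.072, -0.59 and 0.37 log2 units from left to right.

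Around these genes, 65 measured genes of 71 listed for the rest of the pathway were read in the same fit. Of the 65, 4 were lower and 1 was higher past the threshold, where 1.49% of all genes were lower and 0.487% higher. The groups did not overlap for 12 of the 65, against 8.84% of all genes. An unadjusted limma p under 0.05 was found for 21 of the 65, against 13.4% of all genes. The median difference was -0.024 log2 units. The 6 others were not analysed here.

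Among 8 genes that supply substrate, the mitochondrial citrate carrier gene Slc25a1, whose product delivers the citrate that Acly cleaves, fell. Its values were 8.89, 8.97, 8.81 and 8.95 across Control 1 to 4, against 8.01, 7.87, 8.20 and 8.35 across LKB1 KO 1 to 4, with no overlap. The difference was -0.80 (SE 0.13, limma adjusted p = 0.0154), or 1.74-fold, opposite in sign to that of Acly. The call ended without Control 2 (limma adjusted p = 0.0565) or LKB1 KO 1 (0.0551). Of 5 NADPH genes none passed, with 1 at an unadjusted limma p under 0.05, and Idh1 stood at -0.38 (limma adjusted p = 0.270) and Taldo1 at -0.13 (0.735).

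Downstream, 2 of 8 triglyceride synthesis genes fell and none passed the threshold as higher. Dgat1, named after its values were seen, stood at 0.71 (SE 0.21, limma adjusted p = 0.139). Dgat2, which catalyses the last acylation step, measured 9.05, 8.63, 8.92 and 8.82 across Control 1 to 4, against 7.55, 7.68, 7.98 and 7.44 across LKB1 KO 1 to 4. The groups were far apart, with a difference of -1.19 (SE 0.15, limma adjusted p = 0.00382). Gpam, which catalyses the first acylation of glycerol phosphate, differed by -0.76 (SE 0.15, limma adjusted p = 0.0295), but its call ended without any single array other than Control 3 (limma adjusted p up to 0.0893). None of 8 desaturase, elongase and acyl-CoA synthetase genes passed, with 3 at an unadjusted limma p under 0.05. Scd1, the main liver stearoyl-CoA desaturase gene, stood at -0.45 with arrays that did not overlap (limma adjusted p = 0.110), and the elongase gene Elovl6 at 0.60 (0.253).

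Among the regulators, the nuclear receptor gene Rxra, the partner of LXR, fell by 0.69 log2 units (SE 0.12, limma adjusted p = 0.0161), and that call ended without LKB1 KO 1 (limma adjusted p = 0.0551) or LKB1 KO 4 (0.0563). It was the 1 called of 8 carbohydrate and LXR regulators. None of 8 genes of SREBP processing passed, with 4 at an unadjusted limma p under 0.05, where 13.4% of all genes were. Scap, the SREBP escort, stood at -0.60 (limma adjusted p = 0.203). Insig2, which retains the SCAP complex in the endoplasmic reticulum, stood at 0.44 with arrays that did not overlap (limma adjusted p = 0.162).

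In the insulin signalling list, Irs2 rose and was the 1 called of 9. This insulin receptor substrate gene measured 6.34, 5.87, 6.02 and 6.19 across Control 1 to 4, against 7.72, 7.16, 7.50 and 7.35 across LKB1 KO 1 to 4. Every LKB1 KO array lay well above every Control array, with a difference of 1.33 (SE 0.16, limma adjusted p = 0.00284), or 2.51-fold. None of 7 AMPK subunit genes passed, 1 had an unadjusted limma p under 0.05, and values were led by Prkab1 at 0.50 (limma adjusted p = 0.260) and Prkab2 at 0.36 (0.447). None of 4 genes of malonyl-CoA removal and carnitine transfer passed, adjusted or not, with Mlycd at -0.28 and Cpt2 at 0.20 (limma adjusted p = 0.562 each). The groups did not overlap for Cpt2.

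**Figure D5:**
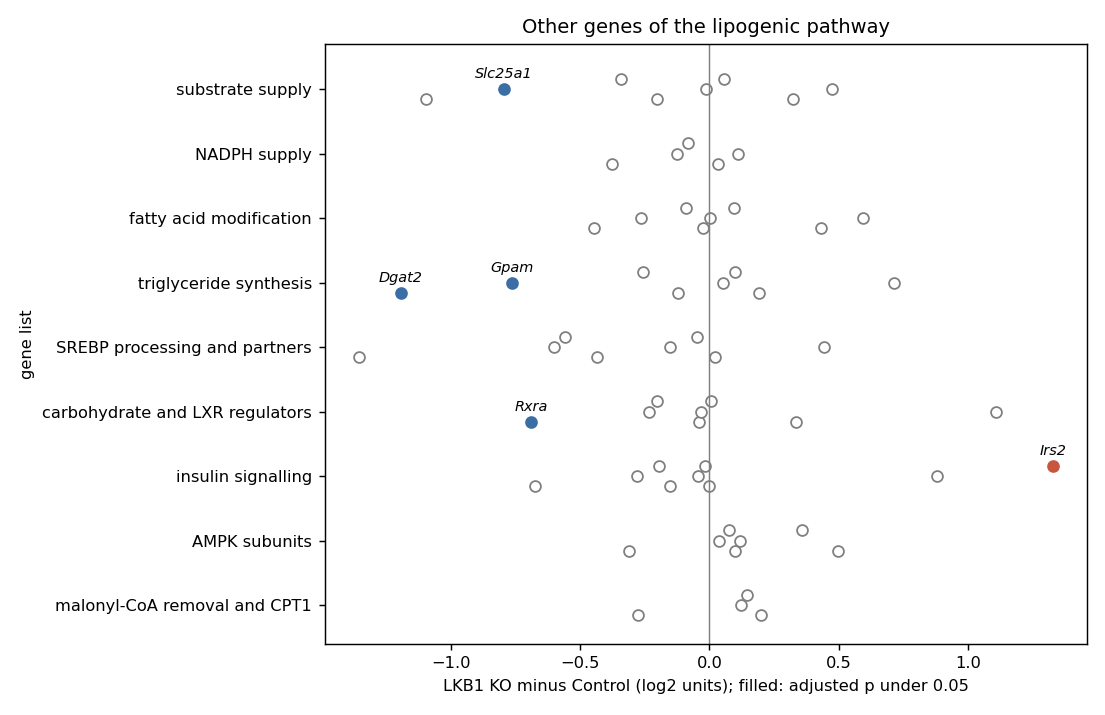
Difference between LKB1 KO and Control (log2 units, horizontal axis) of 65 further pathway genes, one point per gene, grouped by list on the vertical axis; filled and named points have a limma adjusted p under 0.05. Slc25a1, Gpam, Dgat2 and Rxra lie to the left of 0 and Irs2 to the right.

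Markers of other liver cells also differed between the groups. In bulk tissue, fewer cells of a type and less RNA per cell cannot be told apart. All 6 endothelial and all 6 macrophage markers had a lower mean in LKB1 KO, with 3 and 4 at an unadjusted limma p under 0.05. Over all genes, 13.4% had an unadjusted limma p under 0.05 and 1.49% passed the threshold as lower. Of the endothelial markers 2 fell (Clec4g and Kdr), with a list median of -0.40, and their summed level ran from 9.67 to 10.1 log2 units in Control and from 9.30 to 9.55 in LKB1 KO. The call of Kdr ended without any single array other than Control 4 (limma adjusted p up to 0.130). The endothelial markers Pecam1 (-0.081), Cdh5 (-0.10) and Lyve1 (-0.15) overlapped between the groups (limma adjusted p = 0.860, 0.854 and 0.890). Of the macrophage markers 1 fell (Csf1r), with a list median of -0.52 and summed levels of 9.02 to 10.02 and 8.64 to 9.10, and its call ended without any single array other than Control 2 (limma adjusted p up to 0.110). The markers Stab2 (limma adjusted p = 0.0509) and Cd5l (0.0549) passed with the dimmest rows removed (0.0393 and 0.0410) or a trended and robust prior (0.0427 and 0.0424), and Stab2 also with array weights (0.0491). All 4 hepatocyte markers also had a lower mean in LKB1 KO, with a list median of -0.18. Of these, 3 had no overlap between the groups, where 8.84% of all genes had none. The summed level of the 4 ran from 14.1 to 14.2 in Control and from 13.9 to 14.02 in LKB1 KO. None of the 4 was called, and 1 had an unadjusted limma p under 0.05. None of 6 stellate, 4 cholangiocyte, 5 lymphocyte and 4 adipocyte markers was called by limma, and 2 of these, both stellate, had an unadjusted p under 0.05. Means were lower in LKB1 KO for 5 of 6 stellate, 3 of 4 cholangiocyte, 2 of 5 lymphocyte and 2 of 4 adipocyte markers. Over all genes, 47.1% had a lower mean. The summed adipocyte level was 4.90 to 5.09 in Control and 4.95 to 5.14 in LKB1 KO, where the group means of Adipoq, Lep and Retn were below the background gauge. The mean of Plin1 was at the gauge in Control (3.73) and above it in LKB1 KO (3.799). The part of these cell type differences in the lipogenic values was not tested.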

How the data were processed

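The authors deposited 1 log2 expression value per row and array. The submitters' processing notes name RMA (background subtraction, normalization between arrays and summary per gene) and Partek, without versions. The sources used here name neither the array design nor the genome build, and no coordinates or sequences are printed. RMA compresses differences between dim probes. The platform annotation gave 1 symbol to 23185 of 25206 rows and none to 2021. No symbol had more than 1 row.

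Each named row was fitted with limma 3.58.1 in R 4.3.3 (lmFit, eBayes) with the group as the single term. P-values are two-sided and Benjamini-Hochberg adjusted over 23185 rows, with a threshold of 0.05. The fit was tested on simulated data. Differences are LKB1 KO minus Control. Differences between genes within arrays were tested by exact permutation.

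The members and lists were chosen with earlier results of these data known, so no set is tested. Named genes are the 10 members, Stk11, each pathway list's genes past the threshold (otherwise the 2 smallest p), and the 3 profiles nearest Fasn. Cell type lists are given by counts with their called or defining markers, and with further endothelial and macrophage markers chosen after their values were seen. Other genes named are said to be chosen after their values were seen. The planned promoter motif count was not made here. Alternatives covered array removal, normalization, filtering, variance priors, weights, rows and thresholds.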

Additional observations from a re-analysis of the deposited data

Results flagged for a closer look

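Rxra in LKB1 KO 3, at 8.81 log2 units, lay far from the other LKB1 KO arrays (8.62 to 8.65), with a gap of 0.88 of the group's range. It was 1 of 52 groups of 4 arrays checked, and chance alone would flag about 1 in 20. No group of a lipogenic member met this criterion, Control 4 included.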

How the results depend on the processing

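Of the 10 lipogenic genes, 9 kept the sign of their difference under all 17 alternatives, and Fasn did under 13. Fasn ran from -0.29 to 0.084 with single arrays left out, and was 0.11 without both LKB1 KO 2 and Control 4 and 0.017 with array weights. The count of members lower past the threshold ran from 0 to 2 with single arrays left out and was 2 without both of those arrays. The count of members higher was 0 throughout, and their median difference ran from -0.38 to -0.14 with single arrays left out. The other pathway genes past the threshold as higher (1) ran from 1 to 3 with single arrays left out, and numbered 2 without both arrays, 3 after quantile normalization and 3 with array weights. Those lower (4) ran from 1 to 4 with single arrays left out, and numbered 2 without moderation of variances, 1 at an adjusted p under 0.01, 5 after quantile normalization, 5 with the dimmest rows removed, 6 with a trended and robust prior and 6 with array weights. Acaca minus Acacb ran from -0.19 to 0.046 with single arrays left out and was 0.0011 without both arrays. With 1 array left out, its exact test cannot go below 0.0571. The cause of these changes was not tested.

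Replicate numbers shared by the groups do not mark a stated pairing, and same-numbered arrays had deviations correlated at -0.036, -0.11, 0.18 and -0.022 over genes. With the number as a block, 268 of all genes passed instead of 458, 0 members passed, and 1 pathway gene was lower and 1 higher.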

Other observations

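Insig1, a sterol-regulated SREBP target that retains SCAP in the endoplasmic reticulum, was singled out after its values were seen. It measured 9.57, 9.86, 8.19 and 9.47 across Control 1 to 4, against 9.07, 6.58, 7.01 and 9.02 across LKB1 KO 1 to 4. Its 3 lowest arrays, Control 3, LKB1 KO 2 and LKB1 KO 3, were also the 3 lowest arrays of Fasn, so both genes varied within each group. The difference between the groups was -1.35 (SE 0.58, limma adjusted p = 0.340). Acss2, the cytosolic acetyl-CoA synthetase gene, shared 2 of those 3 arrays, as did Srebf1, while Acly shared 1. How many of all genes share these arrays was not counted, so the sharing cannot be weighed. Acss2 differed by -1.10 (SE 0.39, limma adjusted p = 0.223).

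Some further pathway genes, also chosen after their values were seen, missed the threshold but passed it under some alternative settings. The insulin receptor gene Insr stood at -0.67 with arrays that did not overlap (limma adjusted p = 0.0512), and passed after quantile normalization (0.0310), with the dimmest rows removed (0.0393), with a trended and robust prior (0.0377) and with array weights (0.0491). The circadian repressor gene Bhlhe40 stood at 1.11 (limma adjusted p = 0.0802), and passed without Control 3 (0.0250) or LKB1 KO 2 (0.0334), after quantile normalization (0.0434) and with array weights (0.0219). Dgat1, the second acyltransferase of the final triglyceride step, was opposite in sign to Dgat2 (limma adjusted p = 0.139 with all arrays). It passed without LKB1 KO 2 (0.0343), after quantile normalization (0.0434) and with array weights (0.0380). The desaturase gene Scd1 (limma adjusted p = 0.110 in the main fit) passed with a trended and robust prior (0.0273) and with array weights (0.0464). The elongase gene Elovl6, far from the threshold in the main fit (limma adjusted p = 0.253), passed only without both LKB1 KO 2 and Control 4 (0.0452).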
